A study of Mus musculus with 12 samples.

Results

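The lung samples were examined for genes that mark T cells and natural killer (NK) cells: Cd3d, Cd3e, Cd3g, Lck, Nkg7, Gzma, Gzmb, Prf1, Ccl5 and Klrd1. Every probe set that the platform annotation assigns to one of these symbols was taken, which gave 10 probe sets of the 22690 on the array, for 9 of the 10 genes. Prf1 had 2 probe sets, the other 8 genes had 1 each, and Lck was not analysed here. Of these genes, 8 of 9 were bright enough to be tested, among 9294 genes tested in all. Gzmb did not reach the minimum, which was a normalized signal of 100 on at least 3 arrays.

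The study used Affymetrix Murine Genome 430A arrays and total RNA from the lungs of CD-1/ICR mice, in 4 groups of 3 arrays. Nrf2–/– mice (KO) and Nrf2+/+ mice (WT) of that strain were ventilated for 2 h at a high tidal volume (HVT, 30 ml/kg), and KO and WT mice that breathed spontaneously (SpV) for 2 h were the controls. Nrf2, encoded by Nfe2l2, is a transcription factor that switches on antioxidant genes; the deleted region is not stated, nor is it stated that arrays of a group came from separate mice, so p-values measure a spread between samples that may be technical only. WT SpV array 1 is labelled as whole lung, and the remaining 11 arrays as left lobe. In whole tissue, fewer cells of a type and less RNA per cell cannot be told apart.

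T cells recognise antigen through a receptor whose signalling chains are the CD3 proteins, and Lck is the kinase that phosphorylates them. Cytotoxic T cells and NK cells carry granules in which perforin, the product of Prf1, opens the way for granzymes such as those encoded by Gzma and Gzmb, and Nkg7 encodes a membrane protein of those granules. CCL5 is a chemokine made by activated T cells and NK cells, though also by other cells, and Klrd1 encodes CD94, a partner chain of NKG2 receptors on NK cells. Both cell classes are resident in the healthy lung.

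The probe set of Nfe2l2 separated the genotypes as labelled, at 36.2 to 61.3 on the 6 KO arrays, against 2144.3 to 3298.2 on the 6 WT arrays. KO SpV array 1 stood apart. Its deposited trimmed mean signal was 73.9, against 182 to 469 on the other 11 arrays, its ratio of 3′ to 5′ actin signal was 8.76, against 1.39 to 3.10, and it correlated with the other arrays at 0.874 on average, against 0.922 to 0.943. For several genes, differences are given with and without it.

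Promoters are shown for 4 of the genes as examples. Cd3g and Cd3d had the most similar signals among the CD3 chains, and Gzma and Nkg7 were alike among the cytotoxic genes. Promoters were at hand for 8 of the 10 genes. Ccl5, which was at least as like Gzma and Nkg7, had none, nor had Klrd1. RefSeq (GRCm38.p6) gives each window as 250 bases before to 50 after the start of the gene. Capitals mark the core of sites for ETS factors (AGGAAG, or CTTCCT on the other strand) and for RUNX factors (TGTGGT, or ACCACA on the other strand), both of which are families of lymphocyte transcription factors. The windows are chr9:44980382-44980681 on the minus strand for Cd3g, chr9:44981536-44981835 on the plus strand for Cd3d, chr13:113100932-113101231 on the minus strand for Gzma and chr7:43436888-43437187 on the plus strand for Nkg7.
Cd3g: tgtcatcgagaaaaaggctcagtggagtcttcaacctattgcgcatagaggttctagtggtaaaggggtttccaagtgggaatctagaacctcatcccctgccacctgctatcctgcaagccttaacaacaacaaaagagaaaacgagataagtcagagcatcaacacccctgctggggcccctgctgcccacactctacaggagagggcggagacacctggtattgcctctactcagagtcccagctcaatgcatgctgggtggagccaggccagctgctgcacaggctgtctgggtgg
Cd3d: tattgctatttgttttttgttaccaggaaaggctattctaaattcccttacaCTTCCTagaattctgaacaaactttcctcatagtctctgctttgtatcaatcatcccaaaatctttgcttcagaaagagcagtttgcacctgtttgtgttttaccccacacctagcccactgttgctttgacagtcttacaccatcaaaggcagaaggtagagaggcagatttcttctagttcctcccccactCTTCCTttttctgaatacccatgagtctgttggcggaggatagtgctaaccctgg
Gzma: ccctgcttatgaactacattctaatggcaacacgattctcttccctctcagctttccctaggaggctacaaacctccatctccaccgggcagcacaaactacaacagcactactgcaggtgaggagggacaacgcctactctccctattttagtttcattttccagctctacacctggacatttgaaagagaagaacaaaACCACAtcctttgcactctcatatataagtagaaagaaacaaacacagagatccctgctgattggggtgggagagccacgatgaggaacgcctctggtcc
Nkg7: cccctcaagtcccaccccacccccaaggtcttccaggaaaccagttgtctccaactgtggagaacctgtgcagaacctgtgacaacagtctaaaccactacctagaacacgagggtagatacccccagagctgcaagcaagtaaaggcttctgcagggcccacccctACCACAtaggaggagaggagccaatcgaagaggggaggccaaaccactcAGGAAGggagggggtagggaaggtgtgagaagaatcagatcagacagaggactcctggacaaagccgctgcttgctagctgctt
The Cd3d window holds 2 ETS cores and the Cd3g window neither motif. Gzma has 1 RUNX core and Nkg7 has 1 of each. Across 32851 mouse promoters of the same length, 35.4% hold the ETS core and 16.8% the RUNX core, so that a match is common and is a description only. Among the other members, Cd3e has 2 ETS cores, Prf1 has 4 ETS cores and 1 RUNX core, and Gzmb has 2 RUNX cores. Cd3g, Cd3d and Cd3e are neighbours in the RefSeq order on chromosome 9, and the starts of Cd3g and Cd3d lie 1355 bases apart on opposite strands.

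No T or NK cell gene passed an adjusted p of 0.05 in limma, with Benjamini-Hochberg adjustment over all genes tested, in any of the 7 contrasts. The largest differences were those of the cytotoxic genes Ccl5 and Gzma, whose signal averaged highest in WT SpV lungs and was lower in each of the other 3 groups. In KO HVT against WT HVT lungs, 0 of 8 genes were called, where 0.742% of all genes were, and in KO SpV against WT SpV lungs 0 of 8, where 0.334% were. At an unadjusted p under 0.05 the counts were 0 of 8 (12.8% of all genes) and 2 of 8 (13.8%). For KO HVT against KO SpV, 0 of 8 genes and 0% of all genes were called, with 1 of 8 and 10.6% at an unadjusted p under 0.05. Without KO SpV array 1 that contrast called 597 genes in all, and still 0 of the 8. For WT HVT against WT SpV, 0 of 8 were called, against 0.0753% of all genes, with 1 of 8 and 8.02% at an unadjusted p under 0.05. The ventilation effect in KO minus that in WT mice (the interaction) gave 0 of 8 and 0% of all genes, with 0 of 8 and 4.86% at an unadjusted p under 0.05. Averaged over both kinds of breathing, KO against WT gave 0 of 8, against 3.74% of all genes, with 2 of 8 and 21.4% at an unadjusted p under 0.05. Averaged over genotype, HVT against SpV gave 0 of 8, against 0.108%, with 2 of 8 and 13.3% at an unadjusted p under 0.05.

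**Figure D1:**
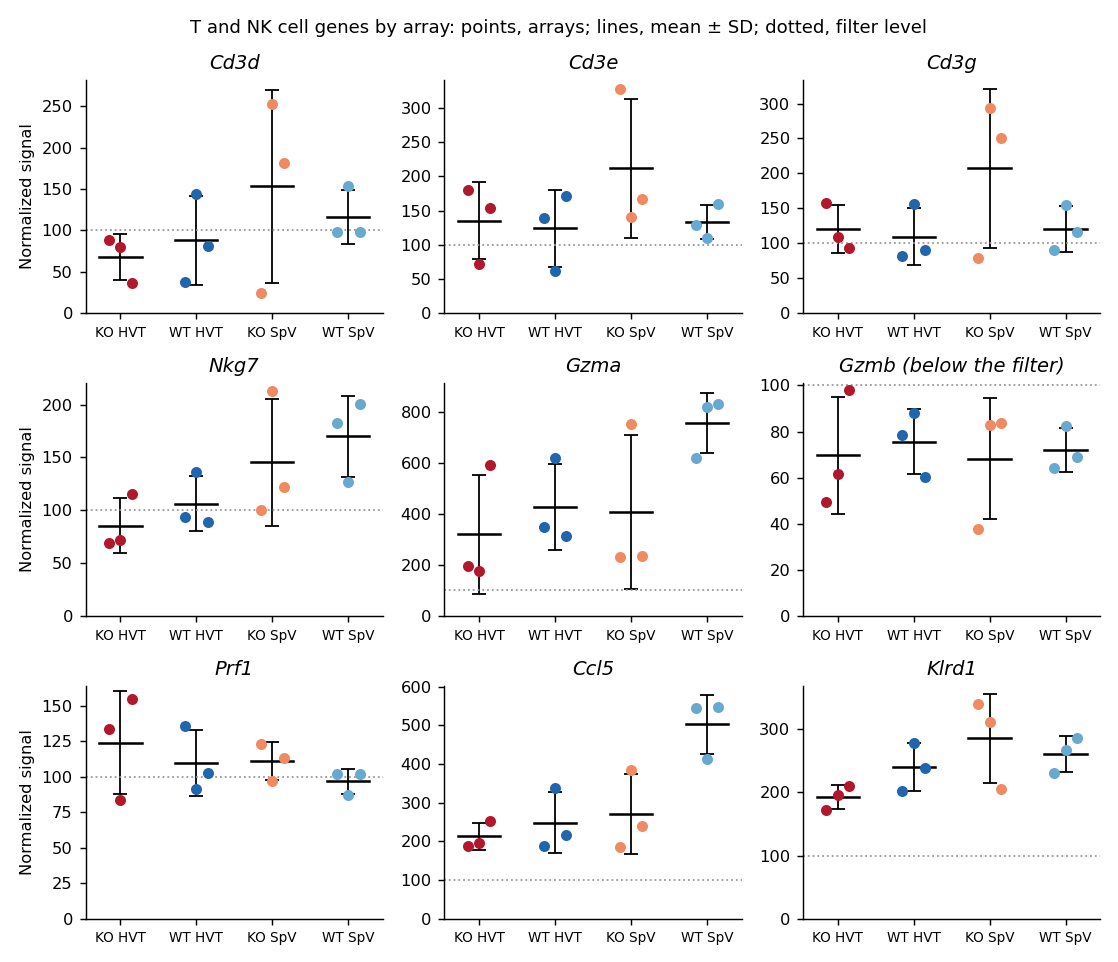
Normalized signal (linear scale, arbitrary units) of the 8 tested T and NK cell genes and of Gzmb on each of the 12 arrays, grouped as KO HVT, WT HVT, KO SpV and WT SpV; points are arrays, black lines the group mean ± SD and the dotted line the minimum of 100. The 3 WT SpV points of Ccl5 lie between 414.3 and 548.5, above every other array, while the brighter Prf1 probe set stays between 83.8 and 154.5 throughout.

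The probe sets of the 3 CD3 chains did not all run alike over the arrays. Cd3d encodes the delta chain. Its probe set (1422828_at) had normalized signals of 88, 79.4 and 36.7 in KO HVT lungs, 37.9, 144.4 and 81.2 in WT HVT lungs, 24.6, 253 and 182 in KO SpV lungs, and 97.6, 154.3 and 97.6 in WT SpV lungs. Arrays 2 and 3 of KO SpV were the brightest of the 12 and array 1 of that group was the dimmest, so that the KO SpV values enclosed those of every other group. Averages were 68 ± 27.5 in KO HVT, 87.8 ± 53.6 in WT HVT, 153.2 ± 117 in KO SpV and 116.5 ± 32.7 in WT SpV lungs (SD, n = 3 each).

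Cd3g, which encodes the gamma chain, followed Cd3d closely. The values of its probe set (1419178_at) were 158.2, 108.4 and 92.6 in KO HVT lungs, 81.9, 156.5 and 90 in WT HVT lungs, 78.1, 293 and 251.3 in KO SpV lungs, and 89.9, 154.3 and 116.4 in WT SpV lungs. The same 2 KO SpV arrays were again the highest and KO SpV array 1 the lowest. Over the 12 arrays, which share their normalization and 4 groups, Cd3d and Cd3g had a Pearson r of 0.87, given as a description.

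Cd3e, the epsilon chain, ran otherwise. Its probe set (1422105_at) read 180.9, 71.6 and 153.2 in KO HVT lungs, 139.4, 61.6 and 171.1 in WT HVT lungs, 328.4, 140.1 and 167.4 in KO SpV lungs, and 128.8, 110.2 and 159.3 in WT SpV lungs. Its highest value was on KO SpV array 1, where Cd3d and Cd3g had their lowest, and its r was -0.44 with Cd3d and -0.20 with Cd3g. These r values include that array and were not computed without it. The deposited signals of that dim array were 50 for Cd3e and 4.7 for Cd3d before any scaling.

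Averaged over genotype, the log2 difference of HVT minus SpV was -0.57 ± 0.44 (SE) for Cd3d, -0.38 ± 0.29 for Cd3e and -0.36 ± 0.29 for Cd3g. Adjusted p-values were 0.603, 0.6 and 0.634, and the 95% intervals, of -1.52 to 0.38, -1.0 to 0.24 and -1.0 to 0.28, all include 0. Without KO SpV array 1 these differences were -0.99 for Cd3d, -0.21 for Cd3e and -0.62 for Cd3g (adjusted p of 0.0606, 0.673 and 0.0874). In KO mice the HVT minus SpV differences were -0.68 ± 0.62, -0.59 ± 0.41 and -0.57 ± 0.42, against -0.46 ± 0.62, -0.17 ± 0.41 and -0.14 ± 0.42 in WT mice, in the order Cd3d, Cd3e, Cd3g. Leaving out that array moved the KO differences to -1.52 for Cd3d, -0.24 for Cd3e and -1.11 for Cd3g, with adjusted p of 0.0571, 0.743 and 0.0514. Cd3d and Cd3g thus differed more without it and Cd3e less, and none of the 3 passed the threshold. Between genotypes, KO SpV minus WT SpV was -0.01 ± 0.62 for Cd3d, 0.54 ± 0.41 for Cd3e and 0.57 ± 0.42 for Cd3g, with adjusted p of 0.996, 0.593 and 0.586. Without KO SpV array 1 it was 0.83 for Cd3d, 0.20 for Cd3e and 1.10 for Cd3g, with adjusted p of 0.374, 0.849 and 0.0901. The sign for Cd3d turned under the other scalings, with values of 0.05 under the trimmed mean alone and 0.08 under equal medians. KO HVT minus WT HVT lay between -0.23 and 0.13 for the 3 chains; without any scaling Cd3e and Cd3g each stood at -0.48, where the median of all genes shifted to -0.77.

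Among the cytotoxic granule proteins, Gzma, which encodes granzyme A, had the widest range. Its probe set (1417898_a_at) read 196.1, 174.5 and 590.8 in KO HVT lungs, 349, 620.6 and 314.1 in WT HVT lungs, 231.1, 755.3 and 236.1 in KO SpV lungs, and 619.8, 819.5 and 832.1 in WT SpV lungs. All 3 WT SpV arrays were at or above 619.8, while each of the other groups held 1 high array and 2 lower ones. WT HVT array 2 and KO SpV array 2 overlapped the WT SpV range. Averages were 320.4 ± 234 in KO HVT, 427.9 ± 168 in WT HVT, 407.5 ± 301 in KO SpV and 757.1 ± 119 in WT SpV lungs (SD, n = 3 each).

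For Gzma the log2 difference of KO SpV minus WT SpV was -1.08 ± 0.49 (95% interval -2.13 to -0.02, adjusted p = 0.355). That difference shrank to -0.80 without KO SpV array 1 and grew to -1.62 without KO SpV array 2. WT HVT minus WT SpV was -0.85 ± 0.49 (adjusted p = 0.755). Averaged over breathing, KO minus WT was -0.81 ± 0.34 (adjusted p = 0.198), with KO and WT arrays overlapping. KO SpV array 2 bears on this value: without it the averaged difference was -1.08 with an adjusted p of 0.0487, and 583 genes in all were then called, against 348 with it. In KO mice alone, HVT minus SpV was -0.32 ± 0.49. It was 0.22 without KO SpV array 2 and -0.60 without KO SpV array 1.

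Nkg7, the granule membrane protein, resembled Gzma. The signals of 1450753_at were 69.3, 72.2 and 115.3 in KO HVT lungs, 93.8, 136.5 and 88.7 in WT HVT lungs, 100.4, 213.2 and 122.4 in KO SpV lungs, and 182.5, 126.8 and 200.6 in WT SpV lungs. Ventilated lungs were lower on average within each genotype, although 1 array in each ventilated group reached into the range of its control group. HVT minus SpV was -0.63 ± 0.31 in KO mice (adjusted p = 0.496) and -0.60 ± 0.31 in WT mice (adjusted p = 0.699). The average over genotype was -0.62 ± 0.22 (95% interval -1.09 to -0.15, adjusted p = 0.236), and KO minus WT averaged over breathing was -0.26 ± 0.22 (adjusted p = 0.533).

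Perforin and granzyme B had smaller differences. The brighter Prf1 probe set (1450335_at) read 134, 83.8 and 154.5 in KO HVT lungs, 135.8, 91.2 and 102.4 in WT HVT lungs, 123.4, 96.9 and 113.1 in KO SpV lungs, and 101.7, 86.9 and 102.2 in WT SpV lungs, so that all 4 groups overlapped. Its 7 log2 differences lay between -0.03 and 0.17, and the HVT minus SpV average was 0.13 ± 0.18 with a 95% interval of -0.27 to 0.52. The second Prf1 probe set (1451862_a_at) was below the minimum on all arrays, between 37.8 and 94.4. Unlike the brighter one, it was lower on average in ventilated lungs. Its averages were 66.9 in KO HVT, 64 in WT HVT, 78 in KO SpV and 87.1 in WT SpV lungs. The WT HVT arrays (71.3, 62.3 and 58.4) lay below the WT SpV arrays (89.7, 94.4 and 77.1), as was so for 9.22% of all genes tested. Gzmb (1419060_at) stayed below 100 on every array too, at 49.5, 61.5 and 98.2 in KO HVT lungs, 78.5, 88.2 and 60.2 in WT HVT lungs, 37.8, 82.8 and 83.7 in KO SpV lungs, and 64.1, 82.5 and 69.1 in WT SpV lungs. When the minimum was dropped, the Gzmb difference of HVT minus SpV averaged over genotype was 0.05 ± 0.22 (adjusted p = 0.959).

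The chemokine gene Ccl5 had the smallest p-values of the 8 in the contrasts with WT SpV. Its probe set (1418126_at) read 189.2, 195.5 and 253.8 in KO HVT lungs, 188.7, 338.1 and 217.7 in WT HVT lungs, 186, 385.8 and 241 in KO SpV lungs, and 545, 414.3 and 548.5 in WT SpV lungs. All 3 WT SpV arrays exceeded the other 9. Averages were 212.8 ± 35.6 in KO HVT, 248.2 ± 79.2 in WT HVT, 270.9 ± 103 in KO SpV and 502.6 ± 76.5 in WT SpV lungs (SD, n = 3 each).

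KO SpV minus WT SpV for Ccl5 was -0.90 ± 0.27 on the log2 scale (95% interval -1.49 to -0.31, adjusted p = 0.177). That difference shrank to -0.68 without KO SpV array 1 and grew to -1.18 without KO SpV array 2. Ccl5 was the 1 gene of the 8 whose groups did not overlap in that contrast, with KO lower, as were those of 9.54% of all genes. WT HVT minus WT SpV was -1.0 ± 0.27 (95% interval -1.59 to -0.41, adjusted p = 0.322), again as the 1 gene of the 8 without overlap, against 9.22% of all genes that were lower without overlap. In that contrast 0.893% of all genes had a smaller p. The other contrasts were smaller: KO HVT minus WT HVT was -0.18 ± 0.27 (adjusted p = 0.814) and KO HVT minus KO SpV was -0.28 ± 0.27 (adjusted p = 0.749), or -0.50 without KO SpV array 1 (adjusted p = 0.26). The ventilation effect in KO mice minus that in WT mice was 0.72 ± 0.38 (adjusted p = 1), so a difference in response between genotypes was not established.

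Averaged over genotype, HVT minus SpV for Ccl5 was -0.64 ± 0.19 (adjusted p = 0.176), and its call depended on the library that stood apart. Without KO SpV array 1 it was -0.75 with an adjusted p of 0.0258, where 648 genes in all were called, against 10 with it. Averaged over breathing, KO minus WT was -0.54 ± 0.19 (adjusted p = 0.132). It was -0.68 with an adjusted p of 0.0441 without KO SpV array 2, the KO control array with the highest Ccl5 signal.

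Klrd1, the CD94 receptor chain, had 172.3, 195.3 and 209.1 in KO HVT lungs, 201.8, 277.6 and 238.2 in WT HVT lungs, 339.5, 310.5 and 204.8 in KO SpV lungs, and 229.9, 266 and 286.3 in WT SpV lungs (1460245_at). The KO HVT arrays were the lowest as a group, but WT HVT array 1 and KO SpV array 3 lay among them. KO HVT minus KO SpV was -0.51 ± 0.21 (adjusted p = 0.411), against -0.12 ± 0.21 for WT HVT minus WT SpV (adjusted p = 0.953). The difference between these effects was -0.38 ± 0.29 (adjusted p = 1), or -0.25 without KO SpV array 1.

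**Figure D2:**
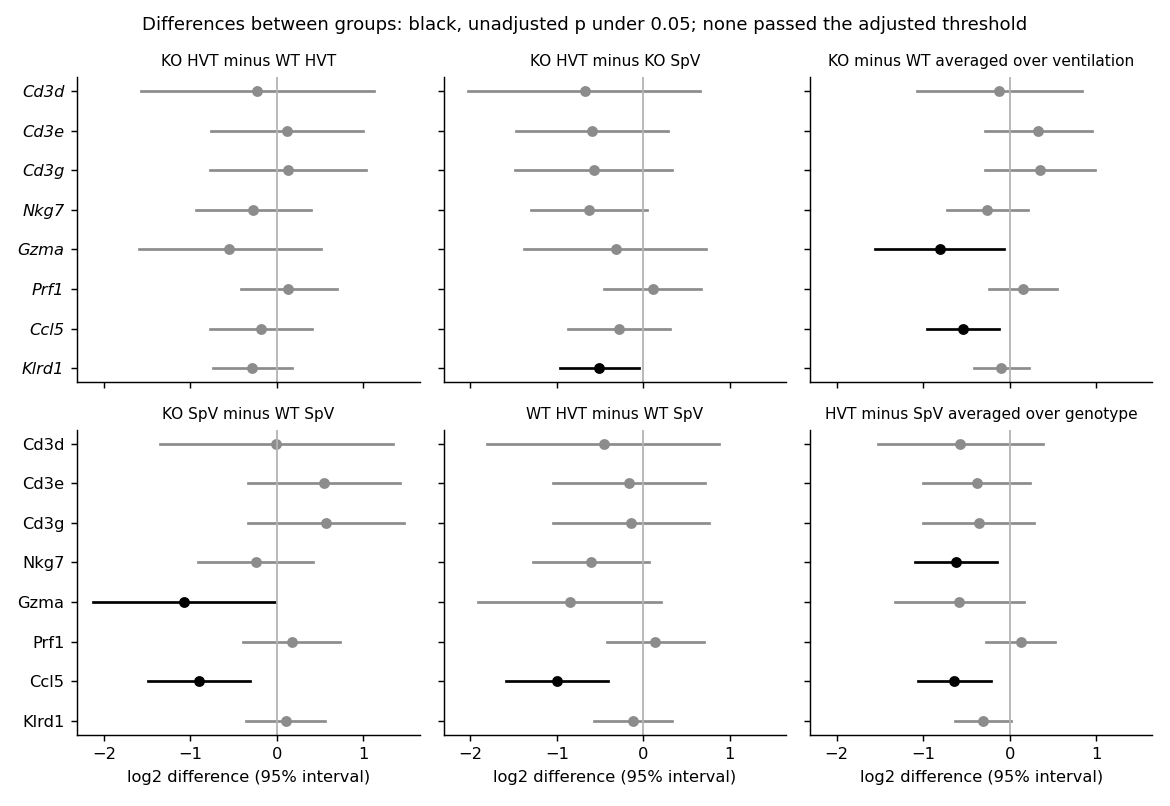
Log2 differences of the 8 tested genes with their 95% intervals (limma, n = 3 arrays per group) in 6 contrasts, with those at an unadjusted p under 0.05 in black. Ccl5 lies at -0.90 for KO SpV minus WT SpV and at -1.0 for WT HVT minus WT SpV, and the intervals of Cd3d, Cd3e, Cd3g and Prf1 include 0 in every contrast.

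In a count over the 8 tested genes, 7 had a negative difference for HVT minus SpV averaged over genotype. Prf1, measured by its brighter probe set, was the exception. The median of the 8 was -0.48. Over all genes the share below 0 was 52.3% and the median -0.01. In KO mice the count for HVT minus SpV was 7 of 8, against 50% of all genes (median -0.54, against 0.00). In WT mice it was also 7 of 8, against 55.9% (median -0.32, against -0.04). That median was -0.18 without WT HVT array 1, -0.58 without WT HVT array 2 and -0.56 with the actin ratio in the fit. For KO minus WT, 5 of 8 were negative under HVT, against 48.3% (median -0.20, against 0.01), and 4 of 8 under SpV, against 51.4% (median 0.04, against -0.01). Averaged over breathing, 5 of 8 were negative, against 49% (median -0.11, against 0.01). For the interaction 6 of 8 were negative, against 47.1% (median -0.13, against 0.02). These genes passed the minimum partly through the groups where they were bright, and the counts are descriptions. At an unadjusted p under 0.05, Ccl5 and Nkg7 were lower for HVT minus SpV averaged over genotype, as were 7.17% of all genes, and Ccl5 and Gzma for KO minus WT averaged over breathing, as were 11% of all genes.

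An exact permutation test on single genes, which exchanged arrays within the other factor (400 arrangements, smallest possible p 0.005), was run for the 8 genes in the 2 averaged contrasts. For HVT against SpV it gave a two-sided p of 0.025 for Nkg7, 0.04 for Ccl5 and 0.075 for Klrd1. For KO against WT it gave 0.055 for Ccl5 and 0.07 for Gzma. Each of these 5 values became 0.24 after Benjamini-Hochberg adjustment over the 16 tests. A comparison of 3 arrays with 3 cannot give an exact p below 0.1.

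Across arrays, Nkg7, Gzma and Ccl5 resembled each other more than they resembled the CD3 chains. All r values here include KO SpV array 1. Nkg7 had an r of 0.88 with Ccl5 and 0.83 with Gzma, and Gzma had 0.86 with Ccl5, over 12 arrays. Their highest r with a CD3 chain was 0.52, that of Ccl5 with Cd3d. Prf1, measured by its brighter probe set, stood outside this set, with an r of -0.63 with Cd3d and 0.59 with Cd3e. Klrd1 was less like the set, with 0.60 for Nkg7, 0.50 for Gzma and 0.43 for Ccl5. Set against the mean of the other 7 genes, Nkg7 had the highest r, 0.88, followed by Ccl5 at 0.73 and Gzma at 0.62, whereas Cd3e had -0.25 and Prf1 -0.40.

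The mean centred log2 signal of the 3 CD3 chains lay between -0.43 and 0.19 in KO HVT lungs, -0.51 and -0.05 in WT HVT lungs, -0.29 and 0.81 in KO SpV lungs and -0.15 and 0.21 in WT SpV lungs. That of the 5 cytotoxic and NK genes lay between -0.58 and 0.11 in KO HVT lungs, -0.24 and 0.19 in WT HVT lungs, -0.23 and 0.44 in KO SpV lungs and 0.28 and 0.54 in WT SpV lungs. CD3 minus cytotoxic scores were highest on KO SpV array 3 (0.90) and KO HVT array 1 (0.68) and lowest on KO HVT array 3 (-0.54), WT SpV array 1 (-0.52) and WT SpV array 3 (-0.50). All 3 WT SpV arrays had a cytotoxic score above their CD3 score, and each of the other groups held arrays of both kinds; this difference between groups was not tested.

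**Figure D3:**
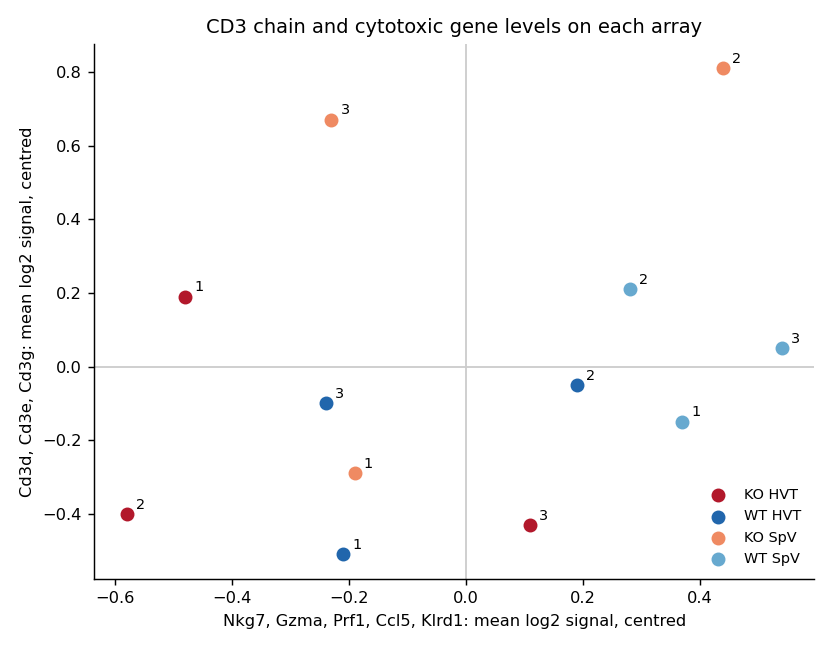
Mean centred log2 signal of the 3 CD3 chains plotted against that of the 5 cytotoxic and NK genes, 1 point per array, marked by group. WT SpV arrays have cytotoxic scores of 0.28 to 0.54 with CD3 scores of -0.15 to 0.21, and KO SpV arrays 2 and 3 have the highest CD3 scores, 0.81 and 0.67.

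Other genes of T cell receptor signalling and T cell identity were measured in part. Of 30 listed, 13 were tested, 13 had probe sets under the minimum and 4 were without a named probe set. Of those tested, 0 were called by limma in any contrast. For HVT minus SpV averaged over genotype, 11 of the 13 had a negative difference, against 52.3% of all genes, with a median of -0.25. At an unadjusted p under 0.05, 3 of the 13 were lower, against 7.17% of all genes. Cd5, which encodes an inhibitory co-receptor of T cells, had the smallest p. Its signals were 40.5, 69.1 and 51.7 in KO HVT lungs, 62.6, 71.8 and 79.4 in WT HVT lungs, 99.1, 86.8 and 113.7 in KO SpV lungs, and 134.1, 143.4 and 102.2 in WT SpV lungs. The 6 HVT arrays all lay below the 6 SpV arrays, as was so for 0.527% of all genes, and the difference was -0.72 ± 0.19 (adjusted p = 0.118). Cd5 reached the minimum signal on SpV arrays only, so it was tested through the group in which it is high, and its direction is a description. Fyn, the other Src-family kinase of the T cell receptor, came next, at -0.33 ± 0.12 (adjusted p = 0.254).

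Of the 26 listed NK receptors and genes of the cytotoxic programme, 9 were tested and 0 were called by limma in any contrast. At an unadjusted p under 0.05, 2 of the 9 differed for KO SpV against WT SpV, 1 in each direction, against 13.8% of all genes, and 2 of the 9 were lower for WT HVT against WT SpV, against 3.54%. Eomes, a transcription factor of NK cells and cytotoxic T cells, had -0.76 ± 0.28 for KO SpV minus WT SpV (adjusted p = 0.262) and -0.69 ± 0.28 for WT HVT minus WT SpV (adjusted p = 0.544). It passed the minimum through the 3 WT SpV arrays and KO HVT array 3, so that these lower values are a description. Il2rb, the beta chain of the receptor for interleukins that sustain NK cells, had -1.37 ± 0.55 for WT HVT minus WT SpV (adjusted p = 0.539). Il2rb reached the minimum only on KO HVT array 3, KO SpV array 1 and WT SpV array 2. Its WT HVT signals, 64.8, 10.9 and 22.3, were all under the minimum, so its difference is a description too. Il18rap, a receptor chain for interleukin-18, had 0.58 ± 0.24 for KO SpV minus WT SpV (adjusted p = 0.313). Genes that load and release granules were brighter, with 9 of 12 tested and 0 called by limma. For KO minus WT averaged over breathing, 2 of the 9 were lower at an unadjusted p under 0.05, against 11% of all genes. The smallest p-values for KO minus WT averaged over breathing were those of Serpinb9, an inhibitor of granzyme B, at -0.68 ± 0.26 (adjusted p = 0.161), and Serpinb6b, of the same inhibitor family, at -0.53 ± 0.23 (adjusted p = 0.214). Of 8 listed CCL5 receptors and related chemokines, Ccr1, Ccl4 and Cxcr3 were tested, and 0 of the 3 were called by limma or had an unadjusted p under 0.05 in any contrast.

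Several defining markers stayed below the minimum. The highest signal on any array was 98.1 for Cd2, 66.4 for Cd4, 58.2 for Cd8b1, 75.3 for Ncr1 and 39.4 for Ifng. Other genes of the same lists exceeded the minimum signal, but on too few arrays to be tested. Cd8a reached 104.7 on WT SpV array 1 and Cd247 108.5 on KO SpV array 2. Gata3 reached 110.9 on WT HVT array 2 and Gzmm 104.1 on KO HVT array 1. Cd4, Cd8a and Cd8b1 were thus not tested, and CD4 and CD8 T cells were not compared. Of 6 thymocyte genes 0 reached the minimum, and 1 had no named probe set. Rag2 still read 134 on WT SpV array 1, the array labelled as whole lung. Dntt reached 110.3 on KO SpV array 1 and Arpp21 107 on KO HVT array 2. Ptcra reached 85.1 at most, on KO HVT array 2, and Rag1 28.6, on WT SpV array 1.

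Genes shared by lymphocytes and other leukocytes included 2 that passed the test. Of 14 listed, 11 were tested. For KO minus WT averaged over breathing, 1 was called higher and 1 lower, where 3.74% of all genes were called. Coro1a, an actin-binding protein of leukocytes, read 770.2, 926.4 and 1768.6 in KO HVT lungs, 950.3, 589.4 and 564.1 in WT HVT lungs, 1513.5, 1794.6 and 1686.1 in KO SpV lungs, and 494.5, 798.8 and 643.8 in WT SpV lungs. The KO SpV arrays all exceeded the WT SpV arrays, as was so for 8.9% of all genes, and the HVT groups overlapped. Coro1a was higher in KO than in WT lungs averaged over breathing, by 1.01 ± 0.21 (adjusted p = 0.0225). With the mean of its probe sets the difference was 0.52 (adjusted p = 0.188), and the call was also lost without WT HVT array 2 (adjusted p = 0.0681), WT SpV array 1 (0.0527) or WT SpV array 3 (0.0581).

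S1pr1, a sphingosine-1-phosphate receptor that lymphocytes use to leave lymphoid organs and that endothelium also carries, was lower in KO lungs. Its signals were 343.6, 294 and 380.6 in KO HVT lungs, 504.6, 720.2 and 510.8 in WT HVT lungs, 350.5, 446.9 and 522.8 in KO SpV lungs, and 683.1, 596.7 and 601 in WT SpV lungs. KO arrays lay below the WT arrays within each kind of breathing. Such a separation, with KO lower, was seen for 13% of all genes under HVT and for 9.54% under SpV. KO minus WT averaged over breathing was -0.62 ± 0.14 (adjusted p = 0.029). The adjusted p was between 0.0579 and 0.0776 when KO HVT array 1 or 2, WT HVT array 2, or any 1 of the WT SpV arrays was left out.

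Markers of other cell types moved across the same groups. The summed signal of 8 endothelial markers was 5399 to 6399 in KO HVT lungs, 9875 to 16214 in WT HVT lungs, 6479 to 11790 in KO SpV lungs and 14914 to 19170 in WT SpV lungs. That of the 2 tested red cell markers, of 5 listed, was 914 to 984 in KO HVT, 926 to 1288 in WT HVT, 1054 to 3426 in KO SpV and 2722 to 3185 in WT SpV lungs. The endothelial sum was, like Ccl5, high on all WT SpV arrays. The red cell sum was carried mainly by Alas2, a heme synthesis enzyme, and the other red cell marker, Slc4a1, read 524.5, 662.3 and 240.6 in KO SpV lungs, against 260.7, 201.6 and 386.5 in WT SpV lungs.

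Neutrophil markers (8 of 9 tested) summed to 2697 to 4061 in KO HVT lungs, 4553 to 9280 in WT HVT lungs, 5760 to 23819 in KO SpV lungs and 5440 to 8019 in WT SpV lungs. Macrophage markers (5 of 8) summed to 8126 to 11663 in KO HVT, 13661 to 17741 in WT HVT, 5937 to 20871 in KO SpV and 17558 to 18880 in WT SpV lungs. That sum was carried mainly by Lyz2, which read 9292 of 10341 on KO HVT array 1. For KO SpV minus WT SpV, 2 of the 5 macrophage markers were higher and 3 lower. Itgax, 1 of those higher, averaged 699.7 in KO SpV and 322.7 in WT SpV lungs. B cell markers (7 of 10 tested) summed to 1275 to 1830 in KO HVT, 845 to 1346 in WT HVT, 1304 to 2438 in KO SpV and 1184 to 1768 in WT SpV lungs. These sums overlapped, but the markers shared directions. For KO HVT minus WT HVT 0 of 7 were lower, against 48.3% of all genes. For WT HVT minus WT SpV 7 of 7 were lower, against 55.9%, and for KO SpV minus WT SpV 2 of 7, against 51.4%. In each of these contrasts 0 were called. The part of these cell types in the values of the T and NK cell genes was not tested. With the actin ratio of each array as a covariate, Ccl5 had -0.69 for HVT minus SpV averaged over genotype (adjusted p = 0.0346), and -0.85 for KO SpV minus WT SpV (adjusted p = 0.0622).

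**Figure D4:**
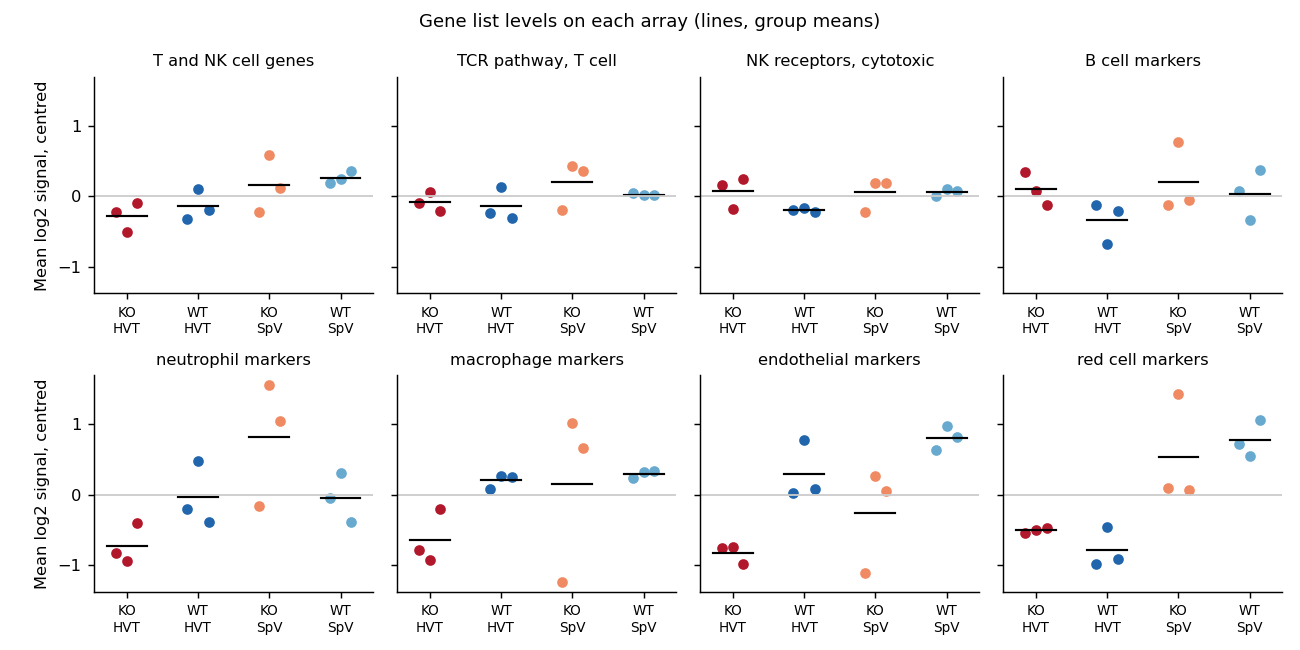
Mean centred log2 signal per array for the 8 T and NK cell genes, the T cell receptor and NK lists, and the markers of B cells, neutrophils, macrophages, endothelium and red cells; points are arrays and lines group means, by group in the order KO HVT, WT HVT, KO SpV and WT SpV. The T and NK cell score is -0.51 to -0.09 in KO HVT lungs and 0.18 to 0.36 in WT SpV lungs, and the endothelial score is -0.99 to -0.75 in KO HVT lungs and 0.63 to 0.97 in WT SpV lungs.

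The 10 other genes whose signal most resembled the mean score of the 8 genes over the 12 arrays were Ehd1 and Slc40a1 (r = 0.93 each), Nfat5 (0.92), Nox4 (0.91), Mrrf, Smim27 and Tmem229b (0.90 each), and Sri, Smad6 and Itih4 (0.89 each). They were chosen from 9294 genes for this likeness, so the values describe the ranking only.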

How the data were processed

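Total RNA of mouse lung was measured on 12 arrays in 4 groups, taken from the sample titles. The deposited intensity values are probe set signals on a linear scale, which the submitters' processing notes credit to GCOS 1.4; the design text describes scaling to an average of 500, but the deposited signals lack it. Each array was scaled to a trimmed mean of 500 (2% off each end), all arrays were quantile normalized, and log2(signal + 16) was taken, which shrinks fold changes of dim probe sets. The 64 control probe sets were left out. Gene names came from the platform annotation: of the other probe sets, 20380 name 1 gene, 691 several and 1555 none or are unlisted, and 20351 matched RefSeq (GRCm38.p6) by Entrez identifier, with 0 symbols changed. A gene was tested if a probe set reached 100 on at least 3 arrays, by its probe set of highest mean, which gave 9294 genes.

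The 4 group means were estimated from all 12 arrays in R 4.3.3 by limma 3.58.1 (eBayes with trend, 8 residual and 4.44 prior degrees of freedom), 2-sided, with Benjamini-Hochberg adjustment over the genes of each of 7 contrasts and a threshold of 0.05. The number of arrays limits the precision: the median SE was 0.231 between 2 groups. In data simulated for KO SpV against WT SpV over 9294 genes, the fit called 53% of genes changed by 1 on the log2 scale and 92% of those changed by 2. The changed genes were drawn from all genes tested. Between 2 groups the SE of the members ran from 0.21 for Klrd1 to 0.62 for Cd3d, so these shares need not hold for them. Alternatives covered scaling, pseudocount, minimum signal, probe set choice, the actin ratio, the replicate number as a block, and leaving out arrays. Whether same-numbered arrays belong together was not settled, and the main fit did not pair them.

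The members and lists were chosen with earlier results of these data known. All probe sets of the listed genes are named. In each further list the text names every called gene or, where none was called, at most the 2 with the smallest p in a contrast; it also names the 10 genes most correlated with the mean score, and, chosen after their values were seen, a few markers under the minimum signal. Probe sets ending in a_at can bind several transcripts of a gene.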

Additional observations from a re-analysis of the deposited data

How the results depend on the processing

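Over 23 alternatives, 56 values (8 genes in 7 contrasts) gave 1288 recomputed differences. Of these, 64 turned sign, 0 of them among the 184 whose main p was under 0.05. Many of the 1288 could not move. Leaving out an array of a group outside the contrast, or adding the replicate block, returns the main difference. The 184 were also chosen for a small p in the same arrays, so these counts are descriptions and do not measure robustness. Members passed the threshold in 5 of the 1288. For HVT minus SpV averaged over genotype, 1 member (Ccl5) was called with the actin ratio as a covariate (-0.69, adjusted p = 0.0346, 506 genes called in all), and 1 (Ccl5) with KO SpV array 1 and WT SpV array 1 both left out, an alternative chosen after seeing the data (-0.72, adjusted p = 0.0469, 636 genes). Leaving out 1 array at a time gave 0 to 1 called members there, the 1 being Ccl5 without KO SpV array 1 (-0.75), and 0 to 2 for KO minus WT averaged over breathing, the 2 being Ccl5 (-0.68) and Gzma (-1.08) without KO SpV array 2. When 1 array was left out, the member median of KO HVT minus KO SpV ranged from -0.55 to -0.20, with -0.20 without KO SpV array 2, that of WT HVT minus WT SpV from -0.58 to -0.18, that of KO HVT minus WT HVT from -0.34 (without WT HVT array 1) to -0.04 (without WT HVT array 2), that of KO SpV minus WT SpV from -0.25 (without KO SpV array 2) to 0.11 (without WT SpV array 2), and that of HVT minus SpV averaged over genotype from -0.67 (without KO SpV array 1) to -0.31 (without KO SpV array 2). Without any scaling the member medians were -0.77 for KO HVT minus WT HVT, -0.28 for KO SpV minus WT SpV and -0.52 for KO minus WT averaged over breathing, where the medians of all genes were -0.77, -0.47 and -0.61.

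Counts of all called genes varied more. For KO HVT minus WT HVT there were 69, with 16 to 470 when 1 array was left out; for WT HVT minus WT SpV 7, with 2 to 43; for KO minus WT averaged over breathing 348, with 122 to 620; and for HVT minus SpV averaged over genotype 10, with 1 to 648. The upper ends of these ranges came without KO SpV array 1. Over 22 alternatives Coro1a kept its call in 17 (0.30 without scaling to 1.13) and S1pr1 in 15 (-1.24 without scaling to -0.52) for KO minus WT averaged over breathing. The main fit did not pair arrays by replicate number. The 18 same-numbered pairs correlated between -0.17 and 0.39, 6 of them over 0.1, and the other 36 pairs between -0.4 and 0.3. The highest value, 0.39, was that of WT HVT array 2 with KO SpV array 2. Same-numbered pairs with a KO HVT array lay between -0.17 and 0.09. Of the 12 arrays, 7 correlated best with their own number, so whether same-numbered arrays belong together was not settled. With the replicate number as a block, 0 members were called in each contrast, and 510 genes were called for KO minus WT averaged over breathing. Every group holds the same replicate numbers, so by design the block leaves each difference as in the main fit. It can change only the SE and p. Signals near or under the minimum of 100, as for Cd3d and Nkg7, limit what could be detected.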
